A study of Mus musculus with 7 samples.

Results

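Constitutive proteasome genes were compared in Paneth cells (PCs), which secrete antimicrobial granules at the base of small intestinal crypts, between mice injected with the inflammatory cytokine tumour necrosis factor (TNF) and controls injected with phosphate-buffered saline (PBS). The genes were chosen by symbol: all protein-coding genes named Psma, Psmb, Psmc or Psmd with a number were taken, except the immunoproteasome subunits Psmb8, Psmb9 and Psmb10. This gave 36 of the 55414 gene identifiers in the count table. They were divided into a core particle of 16 genes, a regulatory particle of 17 genes and 3 assembly chaperones that carry a Psmd symbol. The animals were of the C57BL/6J strain, and the small intestine was taken 15 h after the injection. The bulk RNA-seq data comprised 3 PBS and 4 TNF libraries, each from 1 mouse per the series description. The sources used here give neither the dose, sex and age nor the gate of the sort nor any sorting or sequencing days, and no genetic change is named for either group.

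The proteasome is the large protease of the cytosol and nucleus that degrades ubiquitin-tagged proteins. Its core particle is a barrel in which outer rings of alpha subunits, which form the gate, enclose inner rings of beta subunits, some of which carry the catalytic sites. The regulatory particle caps the barrel: its base holds the ring of ATPases that unfolds the substrate (Psmc genes) and large scaffold subunits, and its lid holds the deubiquitinase that removes the ubiquitin chain. In cytokine-stimulated cells the catalytic beta subunits can be replaced in new particles by the immunoproteasome subunits. Secretory cells such as PCs also depend on the proteasome for the clearance of misfolded proteins returned from the endoplasmic reticulum.

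Promoter sequences are shown for the catalytic genes Psmb5 and Psmb6 and for Psmd9, which hold the antioxidant response element core (the letters TGACNNNGC, bound by factors of the NRF and MAF families) in this stretch, for Psma7, which had the largest rise, and for Psmd5, which was the only gene of the set to fall. They were copied from RefSeq (GRCm38.p6), end at the base before the annotated start and are written 5′ to 3′ on the strand of the gene, with the matching letters in capitals.
Psmb5, chr14:54617996-54618095, minus strand: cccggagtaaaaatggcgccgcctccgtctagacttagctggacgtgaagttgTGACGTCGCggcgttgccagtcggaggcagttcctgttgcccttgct
Psmb6, chr11:70525257-70525356, plus strand: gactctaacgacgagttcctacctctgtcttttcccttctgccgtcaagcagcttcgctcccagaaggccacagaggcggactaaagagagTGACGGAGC
Psmd9, chr5:123228090-123228189, plus strand: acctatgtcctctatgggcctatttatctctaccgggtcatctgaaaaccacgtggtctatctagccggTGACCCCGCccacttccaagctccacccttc
Psma7, chr2:180042465-180042564, minus strand: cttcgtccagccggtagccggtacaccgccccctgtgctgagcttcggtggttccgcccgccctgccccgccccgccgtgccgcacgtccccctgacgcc
Psmd5, chr2:34870963-34871062, minus strand: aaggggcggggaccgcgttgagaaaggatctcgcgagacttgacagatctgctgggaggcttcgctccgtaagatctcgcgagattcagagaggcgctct

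Promoters of 29 of the 36 genes were found in this table, each from 250 bases before to 50 after a start. No promoter was found for Psma8, Psmb1, Psmb2, Psmb7, Psmc3, Psmd3 and Psmd7. Both strands were searched for 4 motifs, and no matches of different motifs overlapped in these genes. The antioxidant response element core was present in 5 of 29 genes (17.2%), namely Psmb5, Psmb6, Psmc6, Psmd12 and Psmd9, against 14% of all genes with a promoter. The CCAAT letters occurred in 12 of 29 genes (41.4%), against 41.1% of all genes. The consensus of NF-kB, the main transcription factor activated by TNF, occurred in 5 of 29 genes (17.2%), against 9.55%, and the interferon response element core (the letters GAAA repeated with any 2 bases between) in 3 of 29 genes (10.3%), against 3.99%. The genes with an NF-kB match were Psma6, Psma7, Psmd11, Psmd12 and Psmd13. These shares describe letters in a short window, and no factor was measured at these promoters.

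Total counts per library ran from 15511455 to 19193721, and values are given as CPM, that is counts per 1000000 counts of a library whose size was scaled by the TMM method of edgeR. The sum of 8 PC marker genes was 164929 to 265015 CPM after PBS and 159520.2 to 285930.3 CPM after TNF, with Lyz1 and Defa24 leading, so the labelled cell type was present in all libraries. Of the single PC markers, 2 of 8 were higher (Pla2g2a, log2 fold change 1.90 ± 0.23, and Mmp7, 0.88 ± 0.21) and 2 lower (Clps, -2.27 ± 0.43, and Habp2, -1.26 ± 0.16) by edgeR. These counts are not above the shares over all tested genes, of which 29.5% were higher and 30.1% lower. Markers of other epithelial cells were summed in the same way. The tuft cell markers summed to 1394 to 2305 CPM after PBS and 264 to 674 CPM after TNF (6 of 6 tested genes lower by edgeR), the stem cell markers to 2407 to 3533 CPM after PBS and 958 to 1589 CPM after TNF (4 of 4 lower), the enterocyte markers to 605 to 759 CPM after PBS and 245 to 318 CPM after TNF (5 of 6 lower), the goblet cell markers to 10434 to 19241 CPM after PBS and 8769.9 to 9839 CPM after TNF (4 of 6 lower), and the enteroendocrine markers to 28.4 to 91.5 CPM after PBS and 21.5 to 31.8 CPM after TNF (2 of 6 lower). Most of the enterocyte sum came from Vil1 alone, which had 562 to 637 CPM after PBS and 235 to 308 CPM after TNF. The enteroendocrine sums overlapped between the groups, and 2 of 6 is near the share of all tested genes that were lower. The 9 leukocyte markers summed to 24.2 to 31.9 CPM after PBS and 18.8 to 28.6 CPM after TNF, with Cd3e at 0 counts and 1 gene higher (S100a9) and 1 lower (Ptprc) of 4 tested. The neutrophil gene S100a9 had 0 counts in every PBS library and 103, 116, 60 and 120 counts in the TNF libraries, and its partner S100a8 had 0 counts in every PBS library and 4 to 13 counts per TNF library. The 7 stromal, endothelial and erythroid markers summed to at most 0.392 CPM, with Col1a2, Hba-a1 and Hbb-bs at 0. The part of these cells in the proteasome results was not tested. In bulk samples, fewer cells of a type and less RNA per cell cannot be told apart.

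Genes of both proteasome particles were higher after TNF. Of the 36 genes, 34 passed the filter on low counts, and 33 of these were higher and 1 was lower by edgeR, where 29.5% of all 14329 tested genes were higher, 30.1% were lower and 59.6% changed in either direction. All 14 tested core particle genes and all 17 regulatory particle genes were higher, with log2 fold changes from 0.48 to 1.71. The median log2 fold change was 1.06 for the core particle (2.08-fold) and 0.91 for the regulatory particle (1.88-fold), beside a median of 0.0017 over all tested genes. A rise of at least 2-fold was found for 8 core genes, 7 regulatory genes and 1 chaperone, together 16 of 34, where 14.4% of tested genes rose that much. For each of the 33 genes that rose, all TNF libraries lay above all PBS libraries, and for the remaining gene all lay below. In either direction, groups without overlap were found for 60.7% of tested genes, 29.9% with TNF above and 30.9% with TNF below.

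**Figure D1:**
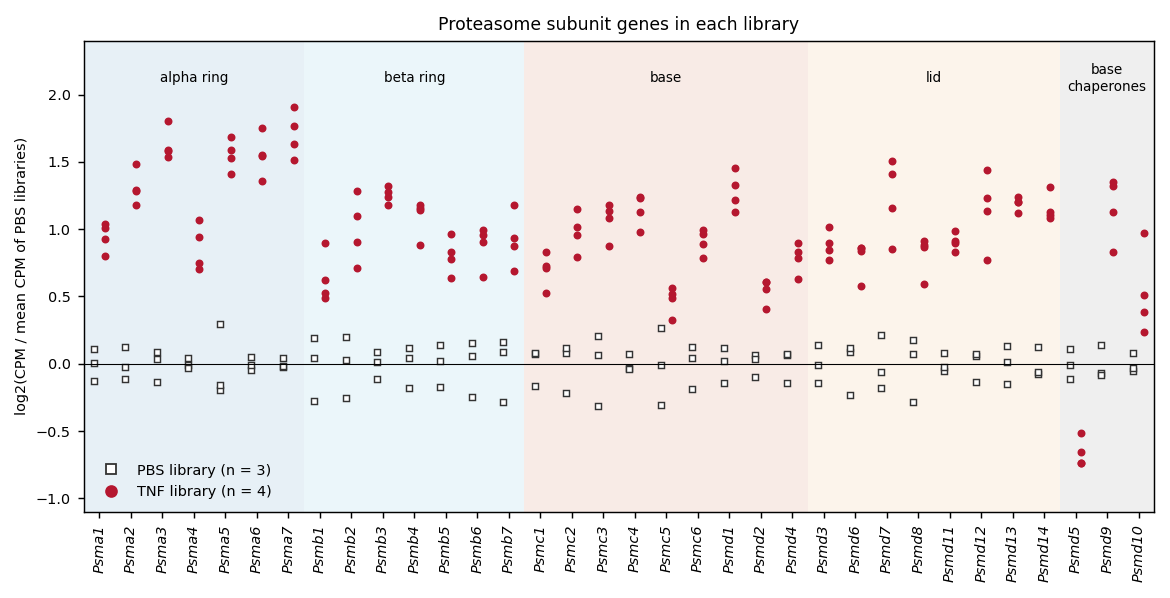
Each point is 1 library, plotted as the log2 ratio of its CPM to the mean CPM of the 3 PBS libraries, for the 34 tested genes in the order of their roles. TNF libraries (filled circles) lie above the PBS libraries (open squares) for 33 genes and below them for Psmd5.

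Summed over all 36 genes, the level was 1559, 1524 and 1344 CPM after PBS and 2662, 2977, 2989 and 3216 CPM after TNF. The lowest TNF library was well above the highest PBS library. On counts as deposited, without any scaling beyond the library total, the 36 genes held 0.145% to 0.163% of counts after PBS and 0.271% to 0.291% after TNF. Scaling by total counts moved the median over the tested genes from a log2 fold change of 0.0017 to -0.16, and 31 of the 34 genes were then higher and 1 lower. Among all tested genes, 3142 were then higher (21.9%) and 4614 lower (32.2%). The calls for Psmc5 and Psmd10 were lost under that scaling.

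The middle 50% of all tested genes had log2 fold changes from -0.74 to 0.66, and 29 of the 34 proteasome genes lay above this range. Of all tested genes, 30.6% had a larger log2 fold change than Psmc5, the particle subunit that rose least.

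**Figure D2:**
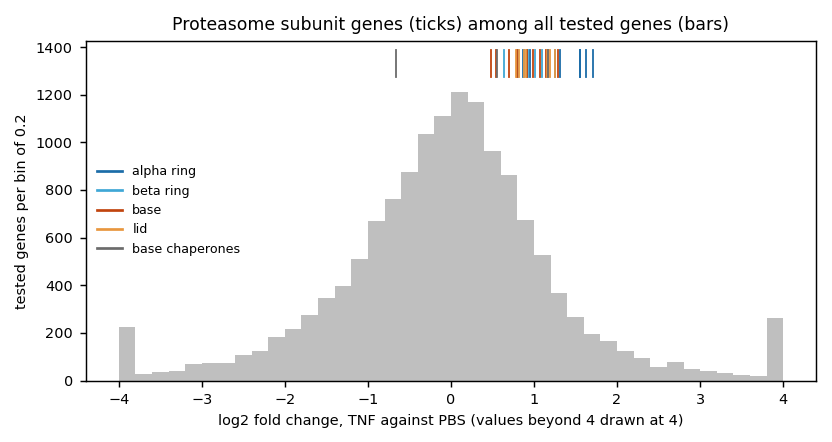
Bars give the number of tested genes per bin of 0.2 in log2 fold change of TNF against PBS, and ticks above them mark the 34 proteasome genes, coloured by role. The outermost bar on each side also holds all genes with changes beyond the axis. The alpha ring genes reach furthest to the right, up to 1.71, and the tick at -0.66 is Psmd5.

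The alpha ring, which gates the entry to the core particle, had the highest median change of the roles within the constitutive particles. All 7 tested genes were higher, with a median log2 fold change of 1.55 (2.93-fold), and 5 of them rose at least 2-fold. Psma7 (ENSMUSG00000027566, chromosome 2, 179678155 to 179684421, GRCm39) had 55.2, 55.5 and 58.0 CPM after PBS and 161, 192, 175 and 212 CPM after TNF. The groups were far apart, and the 3 PBS libraries were nearly equal. Psma7 rose from 56.2 ± 1.54 CPM (n = 3, SD) to 185 ± 22.1 CPM (n = 4, SD) (log2 fold change 1.71 ± 0.12, edgeR adjusted p = 3.30e-08). The next largest changes were those of Psma3 (1.63 ± 0.11), Psma6 (1.56 ± 0.11) and Psma5 (1.55 ± 0.15), and Psma2 had 1.31 ± 0.11. Psma1 (0.95 ± 0.11) and Psma4 rose less. Psma4 (ENSMUSG00000032301, chromosome 9, 54858066 to 54866448), the alpha subunit with the smallest rise, had 47.8, 46.1 and 45.3 CPM after PBS and 75.4, 89.0, 77.8 and 97.2 CPM after TNF. All TNF libraries were higher, and the rise was from 46.4 ± 1.25 CPM (n = 3, SD) to 84.9 ± 10.1 CPM (n = 4, SD) (log2 fold change 0.87 ± 0.11, edgeR adjusted p = 1.50e-05). The edgeR adjusted p of the 7 alpha genes was at most 1.50e-05.

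The last alpha gene, Psma8, encodes an alpha subunit specific to the testis. It had too few counts for the test, namely 8 in the 3 PBS libraries together and 4 in the 4 TNF libraries. Psmb11, which encodes the beta subunit of cortical epithelial cells of the thymus, had 0 and 1 count. No difference was detectable for either at this depth.

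The beta ring holds the catalytic sites and had a lower median change than the alpha ring. All 7 tested beta genes were higher, with a median log2 fold change of 0.93 (1.9-fold) and a range from 0.64 to 1.25. Within each library, the ratio of summed alpha to summed beta CPM, which does not depend on the scaling of libraries, was 0.979, 1.05 and 1.25 in the PBS libraries and 1.55, 1.52, 1.45 and 1.51 in the TNF libraries. The lowest TNF ratio was above the highest PBS ratio, which was that of PBS replicate 3, and the mean ratio was 1.09 ± 0.14 (SD, n = 3) and 1.5 ± 0.0424 (SD, n = 4). This ratio is a description, and no test was made on it.

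The 3 constitutive catalytic genes each rose by slightly less than 2-fold. Psmb5 (ENSMUSG00000022193, chromosome 14, 54850776 to 54855481), which encodes the chymotrypsin-like subunit, had 19.3, 15.5 and 17.7 CPM after PBS and 27.1, 31.1, 30.0 and 34.0 CPM after TNF. It rose from 17.5 ± 1.91 CPM (n = 3, SD) to 30.6 ± 2.85 CPM (n = 4, SD) (log2 fold change 0.81 ± 0.13, edgeR adjusted p = 0.000127). Psmb6 (ENSMUSG00000018286, chromosome 11, 70416183 to 70418684), which encodes the caspase-like subunit, had 59.0, 55.3 and 44.8 CPM after PBS and 82.9, 106, 99.3 and 103 CPM after TNF. Its groups did not overlap (log2 fold change 0.88 ± 0.12, edgeR adjusted p = 3.25e-05). Psmb7 (ENSMUSG00000026750, chromosome 2, 38478044 to 38534099), which encodes the trypsin-like subunit, had 44.6, 42.3 and 32.8 CPM after PBS and 64.4, 76.2, 73.3 and 90.2 CPM after TNF. It rose from 39.9 ± 6.25 CPM (n = 3, SD) to 76.0 ± 10.7 CPM (n = 4, SD) (log2 fold change 0.93 ± 0.14, edgeR adjusted p = 5.39e-05), although its annotated exons share 2817 bases with Nek6 on the other strand, whose log2 fold change was 0.63. With strand use unknown, part of these counts could belong to either gene.

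Of the other beta genes, which have structural roles, Psmb3 rose most and Psmb1 least. Psmb3 (ENSMUSG00000069744, chromosome 11, 97594073 to 97604335) had 18.1, 19.0 and 16.6 CPM after PBS and 42.3, 43.3, 40.5 and 44.7 CPM after TNF. The spread within each group was small beside the difference (log2 fold change 1.25 ± 0.11, edgeR adjusted p = 5.33e-07). Psmb1 (ENSMUSG00000014769, chromosome 17, 15691080 to 15720013) had 78.4, 70.6 and 56.7 CPM after PBS and 96.2, 98.7, 105 and 128 CPM after TNF. The PBS libraries were spread more widely than for Psmb3, but all were below the TNF libraries (log2 fold change 0.64 ± 0.13, edgeR adjusted p = 0.000856). The log2 fold changes of Psmb4 and Psmb2 were 1.10 ± 0.11 and 1.01 ± 0.15 (edgeR adjusted p at most 5.27e-05).

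**Figure D3:**
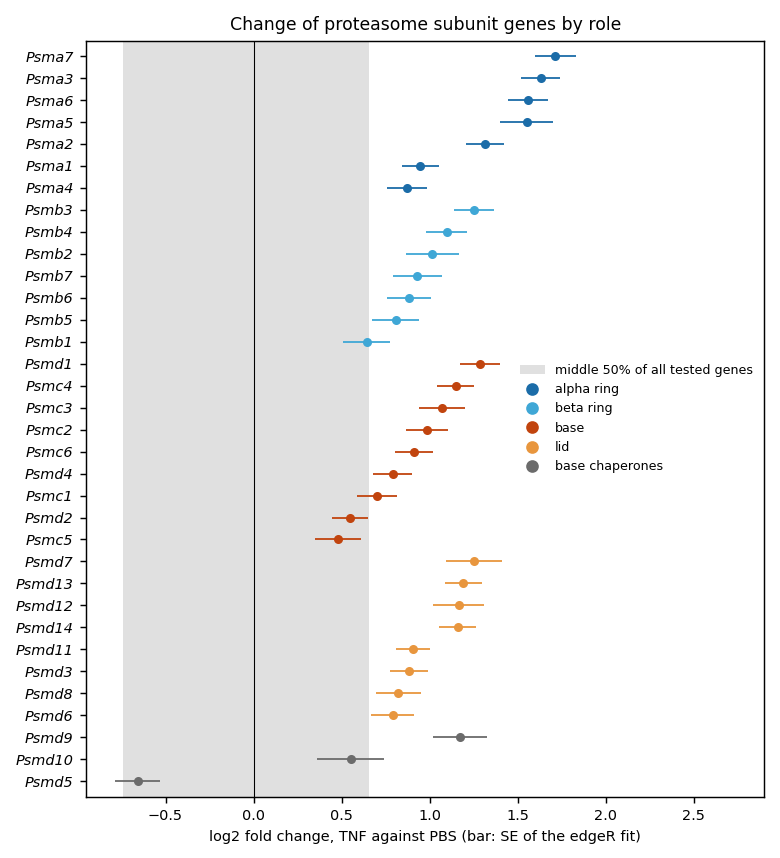
Points are log2 fold changes of TNF against PBS with SE bars from the edgeR fit, ordered within each role, and the grey band spans the middle 50% of all tested genes. The alpha genes Psma7, Psma3, Psma6 and Psma5 exceed 1.5, and Psmd5 is the only gene to the left of 0.

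In the base of the regulatory particle, all 9 genes were higher, with a median log2 fold change of 0.91. The 6 ATPase genes Psmc1 to Psmc6 ranged from 0.48 to 1.15 (median 0.95), with Psmc4 highest (1.15 ± 0.11), followed by Psmc3 (1.07 ± 0.13), Psmc2 (0.98 ± 0.12), Psmc6 (0.91 ± 0.11) and Psmc1 (0.70 ± 0.12). Psmc5 (ENSMUSG00000020708, chromosome 11, 106146951 to 106156291) rose least of all particle subunits and had 47.3, 57.2 and 38.5 CPM after PBS and 59.7, 68.4, 70.4 and 67.0 CPM after TNF. The highest PBS value, in replicate 2, was near the lowest TNF value, in replicate 1 (log2 fold change 0.48 ± 0.13, edgeR adjusted p = 0.00612). This call was lost with scaling by total counts (log2 fold change 0.32, edgeR adjusted p = 0.0827, range over 14 alternatives 0.000585 to 0.0827). The exons of Psmc5 share 1269 bases with Smarcd2 on the other strand, which held 9947 counts over all libraries beside 7180 for Psmc5 and had a log2 fold change of -0.82.

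The non-ATPase subunits of the base comprise the scaffold proteins encoded by Psmd1 and Psmd2 and the ubiquitin receptor encoded by Psmd4. Psmd1 (ENSMUSG00000026229, chromosome 1, 85992097 to 86070048) had the largest rise of the base, with 54.5, 58.4 and 48.7 CPM after PBS and 118, 125, 135 and 148 CPM after TNF. The groups were widely separated (log2 fold change 1.29 ± 0.11, edgeR adjusted p = 4.06e-07). On the log2 scale, Psmd2 rose by 0.55 ± 0.10 (edgeR adjusted p = 0.000331), and Psmd4 by 0.79 ± 0.11 (3.23e-05).

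All 8 lid genes were higher, with a median log2 fold change of 1.03 and a narrow range from 0.79 to 1.25. Psmd14 encodes the deubiquitinase of the lid and rose by 1.16 ± 0.11 (edgeR adjusted p = 6.33e-07). Its binding partner Psmd7 (ENSMUSG00000039067, chromosome 8, 108307010 to 108315121) had the largest rise, with 21.2, 25.6 and 19.6 CPM after PBS and 40.0, 49.3, 62.7 and 58.6 CPM after TNF. The TNF libraries were spread more widely than the PBS libraries, without overlap (log2 fold change 1.25 ± 0.16, edgeR adjusted p = 1.48e-05). The other lid genes encode scaffold subunits. Psmd13 (1.19 ± 0.11), Psmd12 (1.16 ± 0.14), Psmd11 (0.91 ± 0.10), Psmd3 (0.88 ± 0.11) and Psmd8 (0.82 ± 0.13) lay between Psmd7 and Psmd6. Psmd6 (ENSMUSG00000021737, chromosome 14, 8348762 to 8357589) rose least and had 36.7, 37.5 and 29.4 CPM after PBS and 51.6, 62.7, 62.6 and 61.7 CPM after TNF. TNF replicate 1 was lower than the other TNF libraries, which were nearly equal (log2 fold change 0.79 ± 0.12, edgeR adjusted p = 7.81e-05).

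The summed levels of the particles were compared within each library. The ratio of summed core to summed regulatory CPM was 0.645, 0.622 and 0.665 in the PBS libraries and 0.752, 0.766, 0.729 and 0.818 in the TNF libraries, and the groups did not overlap. The ratio of base to lid was 1.15, 1.27 and 1.16 in the PBS libraries and 1.11, 1.06, 1.14 and 1.11 in the TNF libraries, where TNF replicate 3 came close to the lowest PBS ratio. Over the 31 core and regulatory genes, the log2 fold change had a Spearman rho of -0.28 with the mean CPM after PBS and of -0.12 with transcript length. These are descriptions across genes from the same 7 libraries, and the first shares the PBS values on both sides.

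Besides the particle subunits, 3 Psmd genes encode chaperones that help to assemble the base, and these did not move together. Psmd5 (ENSMUSG00000026869, chromosome 2, 34739746 to 34764980) had 28.6, 26.3 and 24.5 CPM after PBS and 15.9, 16.7, 18.5 and 15.8 CPM after TNF. Each TNF library was below each PBS library, and Psmd5 fell from 26.4 ± 2.03 CPM (n = 3, SD) to 16.7 ± 1.23 CPM (n = 4, SD) (log2 fold change -0.66 ± 0.13, edgeR adjusted p = 0.000469). Its log2 fold change was between -0.81 and -0.60 over 14 alternatives, with an edgeR or DESeq2 adjusted p of at most 0.00949. The exons of Psmd5 share 32 bases with Cutal on the other strand, which had a log2 fold change of -0.68. Cutal held 1489 counts over all libraries, beside 2595 for Psmd5. Psmd9 (ENSMUSG00000029440, chromosome 5, 123307476 to 123388656) rose, with 14.1, 12.2 and 12.1 CPM after PBS and 32.0, 22.8, 28.0 and 32.7 CPM after TNF (log2 fold change 1.17 ± 0.15, edgeR adjusted p = 1.65e-05). Psmd10, whose product is also known as the oncoprotein gankyrin, had 9.46, 10.3 and 9.6 CPM after PBS and 11.5, 12.8, 19.2 and 13.9 CPM after TNF. TNF replicate 3 was well above the other TNF libraries (log2 fold change 0.55 ± 0.19, edgeR adjusted p = 0.0224). Without PBS replicate 1, the change no longer passed the test (log2 fold change 0.53), and the same held without PBS replicate 3 (0.53) or TNF replicate 3 (0.37), and with scaling by total counts (0.38). Its adjusted p ranged from 0.00769 to 0.169 over the alternatives.

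Levels of different genes can be compared only per length, so CPM was divided by the merged exon length of each gene in kb. On this scale the 7 alpha genes ranged from 3.21 CPM per kb (Psma3) to 20.5 CPM per kb (Psma6) after PBS, and from 9.94 to 60.3 CPM per kb after TNF with the same genes at both ends. The beta genes ranged from 2.99 (Psmb2) to 24.2 CPM per kb (Psmb6) after PBS and from 6.03 to 44.5 CPM per kb after TNF, again with the same genes. The highest level was thus 6.38 times the lowest in the alpha ring and 8.1 times in the beta ring after PBS, and 6.07 and 7.38 times after TNF. In the base and the lid the ratio was 4.56 and 4.19 after PBS and 3.31 and 3.28 after TNF. Both the order of levels and these ratios depend on the length used. With the length of the canonical transcript, chosen as an alternative after the data were seen, Psma7 in place of Psma6 was the highest alpha gene, at 59.6 CPM per kb after PBS and 196 CPM per kb after TNF, and Psma5 the lowest. The ratio was then higher after TNF than after PBS in the alpha ring (from 7.39 to 8.26) and in the base (2.91 to 3.24), and lower in the beta ring (7.34 to 6.69) and the lid (3.01 to 2.33).

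The immunoproteasome subunits, which replace the constitutive catalytic subunits, were left out by the rule but are the natural comparison for them. All 3 were higher after TNF, by unequal amounts. Psmb8, the counterpart of Psmb5, had 13.4, 11.1 and 14.1 CPM after PBS and 45.9, 68.5, 60.5 and 69.2 CPM after TNF. The rise was the largest of the 3 (log2 fold change 2.25 ± 0.16, edgeR adjusted p = 5.66e-08). Psmb10, the counterpart of Psmb7, had 28.2, 25.3 and 26.2 CPM after PBS and 70.1, 93.5, 83.1 and 100.2 CPM after TNF (log2 fold change 1.71 ± 0.13, edgeR adjusted p = 1.14e-07). Psmb9, the counterpart of Psmb6, had 8.96, 11.7 and 10.7 CPM after PBS and 15.1, 19.7, 17.7 and 16.6 CPM after TNF. All TNF libraries were above the PBS libraries (log2 fold change 0.72 ± 0.16, edgeR adjusted p = 0.00157). Its exons share 743 bases with Tap1 on the other strand, which had a log2 fold change of 2.76.

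For each catalytic pair, the share of the immunoproteasome subunit was computed per library from CPM per kb. Psmb8 held 26.8%, 27.4% and 29.4% after PBS and 47.0%, 53.6%, 51.4% and 51.7% after TNF of the sum of Psmb5 and Psmb8. The mean share was 27.9% ± 1.39 (n = 3, SD) after PBS and 51.0% ± 2.79 (n = 4, SD) after TNF, and all TNF libraries were higher (two-sided exact permutation p = 0.0286, adjusted over 3 pairs 0.0429). Psmb10 held 69.9% ± 3.17 (n = 3, SD) after PBS and 79.8% ± 0.837 (n = 4, SD) after TNF of its sum with Psmb7, with no overlap of groups (exact permutation p = 0.0286, adjusted 0.0429). The value 0.0286 is the smallest p that the 35 splits of 7 libraries can give. The share of Psmb9 in its sum with Psmb6 was 10.4% ± 2.09 (n = 3, SD) after PBS and 9.27% ± 0.548 (n = 4, SD) after TNF, and these groups overlapped (exact permutation p = 0.4, adjusted 0.4). With the canonical transcript length, the shares were 42.3% and 66.4% for Psmb8, 37.3% and 50.2% for Psmb10 and 13.3% and 11.9% for Psmb9 after PBS and TNF. The absolute share therefore depends on the length used, while the order of the libraries cannot change with it, since the length scales each pair alike in every library. In CPM per kb of merged exons, Psmb5 had 9.75 ± 1.07 CPM per kb (n = 3, SD) after PBS and 17.0 ± 1.59 CPM per kb (n = 4, SD) after TNF, and Psmb8 3.77 ± 0.455 CPM per kb (n = 3, SD) after PBS and 17.9 ± 3.18 CPM per kb (n = 4, SD) after TNF.

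**Figure D4:**
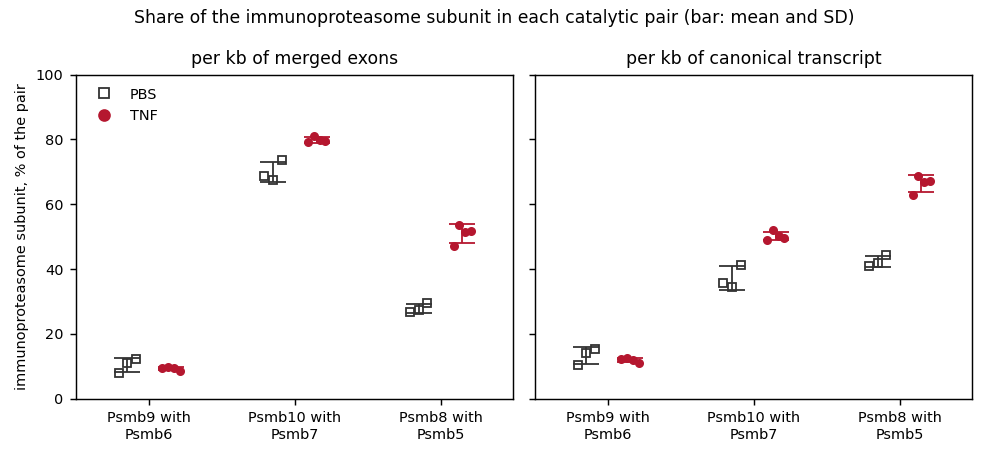
The vertical axis gives the immunoproteasome subunit as a percentage of its pair, for each library (points) with the mean and SD of each group (bars), with levels per kb of merged exons on the left and per kb of canonical transcript on the right. The TNF libraries lie above the PBS libraries for Psmb10 and Psmb8, and the groups overlap for Psmb9.

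Further genes of the proteasome system were examined by lists, whose counts stand beside the 29.5% higher and 30.1% lower among all tested genes. Among the alternative caps of the core particle, Psme1 and Psme2, which encode the interferon-inducible activator, rose by 1.25 ± 0.12 and 2.08 ± 0.14 (edgeR adjusted p = 6.69e-07 and 4.18e-08). Psme2 had 29.2, 34.0 and 30.5 CPM after PBS and 103, 136, 127 and 160.0 CPM after TNF, with no overlap of the groups. The nuclear activator gene Psme3 rose by 0.59 ± 0.10 and the inhibitor gene Psmf1 by 0.38 ± 0.12, and the latter call was lost without PBS replicate 3 (log2 fold change 0.31) and with scaling by total counts (0.22). Psme4 did not pass the test (-0.21 ± 0.10, edgeR adjusted p = 0.0942), but was called lower with scaling by total counts (-0.36, 0.016).

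Of the 5 chaperone genes for the assembly of the core particle, 2 were higher and 0 lower, with a median log2 fold change of -0.04. Pomp, which encodes the maturation factor for the beta ring, rose with 38.3, 37.1 and 36.6 CPM after PBS and 92.7, 109, 93.2 and 112 CPM after TNF (log2 fold change 1.44 ± 0.11, edgeR adjusted p = 9.07e-08). The genes Psmg1, Psmg2 and Psmg3 did not pass the test, with log2 fold changes of -0.40 ± 0.18, -0.23 ± 0.21 and -0.04 ± 0.25 (edgeR adjusted p = 0.0719, 0.366 and 0.904). These genes had low levels of at most 13.2 CPM in any library. Psmg4 was higher (log2 fold change 0.84 ± 0.31, edgeR adjusted p = 0.0288), but its groups overlapped and the call was lost without any of 5 libraries, namely PBS replicates 1 (0.72) and 3 (0.70) as well as TNF replicates 2 (0.85), 3 (0.72) and 4 (0.77). Psmg1 was called lower with scaling by total counts (-0.57, 0.0489). Of the regulatory particle genes with other symbols, the ubiquitin receptor gene Adrm1 rose by 1.08 ± 0.11 (edgeR adjusted p = 1.51e-06) and Sem1, which encodes a small lid subunit, by 0.67 ± 0.22 (0.0171). The groups overlapped for Sem1, and the call was lost without PBS replicate 3 (0.42). Paaf1 was not analysed here.

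Nfe2l1 encodes the transcription factor NRF1, which raises proteasome genes when proteasome capacity is low. It rose with 143, 140.1 and 127 CPM after PBS and 236, 267, 275 and 263 CPM after TNF (log2 fold change 0.93 ± 0.10, edgeR adjusted p = 3.97e-06). In the list of 11 genes made of Nfe2l1 itself and genes that act with it or on it, 6 were higher and 2 lower by edgeR (median log2 fold change 0.64). The small MAF genes, which encode its partners on DNA, rose most, with 2.39 ± 0.14 for Maff, 1.70 ± 0.12 for Mafg and 1.65 ± 0.12 for Mafk (edgeR adjusted p at most 5.07e-08). Maff had 12.4, 9.32 and 10.2 CPM after PBS and 55.7, 61.5, 48.6 and 56.2 CPM after TNF. Of the genes for its processing, Ngly1 rose (0.64 ± 0.10) and the protease gene Ddi2 fell (-0.50 ± 0.11, edgeR adjusted p = 0.00139). The shuttle factor gene Rad23b rose by 0.65 ± 0.10. The related factor gene Nfe2l2 (-0.16 ± 0.12), Vcp (0.21 ± 0.12) and Akirin2 (0.04 ± 0.13) did not pass the test. Vcp passed it without PBS replicate 1 (0.31).

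Of 10 genes for enzymes and shuttle factors that bind the proteasome, 4 were higher and 2 lower (median log2 fold change 0.28), which is near the shares of 29.5% and 30.1% over all tested genes. Zfand2a, which is induced by proteotoxic stress, rose most, with 32.3, 28.9 and 39.4 CPM after PBS and 179, 186, 175 and 176 CPM after TNF (log2 fold change 2.41 ± 0.12, edgeR adjusted p = 2.39e-09). The proteasome-bound deubiquitinase gene Usp14 rose by 1.23 ± 0.11, and Ubqln4 (-0.42 ± 0.10) and Ecpas (-0.38 ± 0.10) fell. Zfand5 was higher (0.32 ± 0.12), a call lost without PBS replicates 2 (0.30) or 3 (0.27) or TNF replicates 1 (0.22) or 3 (0.31), and Ubqln2 (0.33 ± 0.16) was called only without PBS replicate 1 (0.53) or TNF replicate 1 (0.40) or without the filter on low counts (0.33). Among the ubiquitin genes and the enzymes that activate ubiquitin, 3 of 6 were higher and 1 lower. Rps27a, which encodes ubiquitin fused to a ribosomal protein, rose by 0.78 ± 0.19 (edgeR adjusted p = 0.00357) and Uba6 fell by 0.98 ± 0.16 on the log2 scale (0.000137), whereas the main activating enzyme gene Uba1 did not pass the test (-0.04 ± 0.13, 0.785). Ubb (0.78 ± 0.25) was called higher with overlapping groups.

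As comparison complexes, the COP9 signalosome, whose subunits are related to those of the lid, and the chaperonin CCT, another ring-shaped complex of the cytosol, were counted in the same fit. In the COP9 signalosome, 3 genes were higher and 2 lower of 10 (median log2 fold change 0.22), near the shares over all tested genes (29.5% and 30.1%), with values from -0.85 ± 0.21 for Cops7b to 1.12 ± 0.12 for Cops8. The call for Cops7a (-0.37 ± 0.12) was lost without PBS replicate 1 (-0.32) or 2 (-0.36), and Cops4 (0.23 ± 0.12) and Cops9 (0.44 ± 0.24) were called higher without PBS replicate 1 (0.35 and 0.66) or TNF replicate 1 (0.29 and 0.57). In CCT, 7 of 8 genes were higher and 0 lower (median 0.74), with values up to 0.82 ± 0.12 for Cct3. Cct7 (0.35 ± 0.11) had the smallest change among those called and was no longer called without PBS replicate 2 (0.30), and Cct4 (0.02 ± 0.11) did not pass the test. All 31 tested subunit genes of the core and regulatory particles were higher, and the difference between the complexes was not tested.

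**Figure D5:**
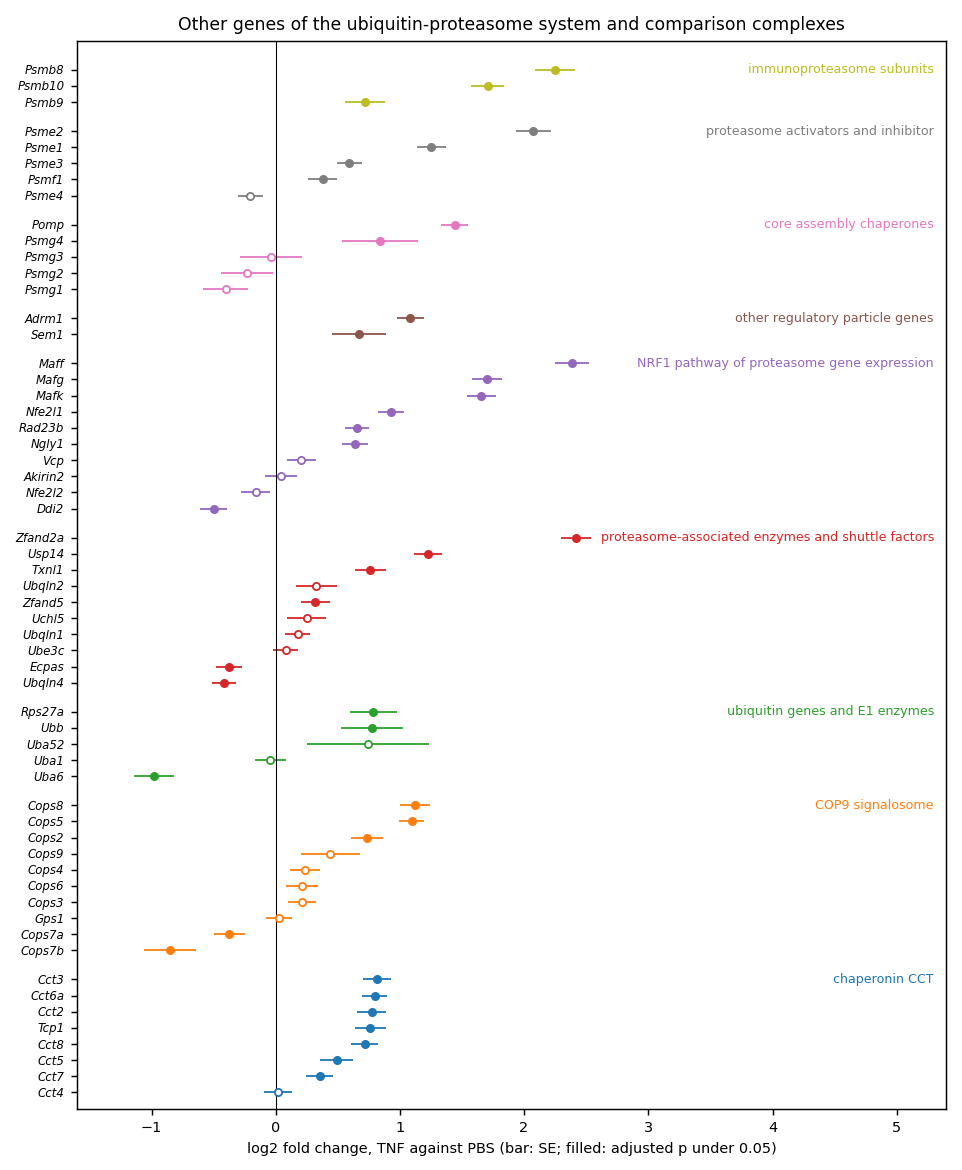
Points are log2 fold changes of TNF against PBS with SE bars, grouped by list, for the genes reported here, and filled points passed an edgeR adjusted p of 0.05. Zfand2a, Maff, Psmb8 and Psme2 exceed 2, and Uba6 at -0.98 is the lowest.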

How the data were processed

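Sorted PCs of 7 mice were profiled by bulk RNA-seq (Element AVITI, single-end). The authors deposited 1 table of raw counts of reads per Ensembl gene. The submitters' processing notes name FastQC, Trimmomatic 0.39, STAR 2.7.10a, DESeq2 and the builds mm10 and mm39, without their role. How reads were counted, with which annotation and whether by strand, is not given in the sources used here. Counts of overlapping genes are thus uncertain. Exons of 9 of the proteasome genes overlap another tested gene. Symbols, biotypes, GRCm39 coordinates and exon lengths came from GENCODE M39, matched by identifier (54749 of 55414). It may differ from the annotation used for counting.

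TNF was compared with PBS by the quasi-likelihood F test of edgeR 4.0.16 in R 4.3.3 (filterByExpr, TMM, robust, two-sided, no covariates) over all genes, with Benjamini-Hochberg adjustment and a threshold of 0.05. Standard errors (SE) were derived from the F statistic. CPM are counts per 1000000 on TMM-scaled sizes. The procedure was tested on simulated data in which few genes changed, equally in both directions, unlike the large share called here. That simulation thus says little on the scaling of these libraries. Shares of catalytic pairs were compared by exact permutation over 35 splits. Alternatives were other scalings and filters, DESeq2 1.42.0, the replicate block, a 2-fold limit and leaving out each library. Values in every library were given for the catalytic genes, the immunoproteasome genes and the genes with the highest and lowest called change of each role, and for some further genes chosen after their values were seen. The genes and lists were chosen with earlier results of these data known. Some genes of the lists are not reported here by name. Separate mice are stated by the series description only.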

Additional observations from a re-analysis of the deposited data

Results flagged for a closer look

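Within the 4 TNF libraries, the highest and the lowest value of each gene, sum and share were compared with the other libraries, and 4 of 108 values lay apart, where chance gives about 1 in 20. All 4 concerned TNF replicate 1. It was lowest for Psmb4 (79.9 CPM, others 95.4 to 97.9 CPM), Psmd6 (51.6 CPM, others 61.7 to 62.7 CPM) and Psmd8 (84.9 CPM, others 103 to 106 CPM), and highest for Ecpas (148 CPM, others 123 to 125 CPM). Without this library, the log2 fold changes were 1.16, 0.85, 0.89 and -0.45, and 33 proteasome genes were higher and 1 lower.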

How the results depend on the processing

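The number of proteasome genes called higher was 31 to 33 and the number called lower was 1 under every alternative except the 2-fold limit, which left 16 and 0. That limit left 4530 genes called in all (2065 higher and 2465 lower) and 13 and 0 of the 60 genes of the other lists in place of 34 and 7. Leaving out single libraries gave 32 to 33 proteasome genes higher, 7663 to 8625 genes called in all, and medians of 0.98 to 1.14 for the core and 0.88 to 0.98 for the regulatory particle. Scaling by total counts moved these medians to 0.89 and 0.76. Of 476 values of single proteasome genes under alternatives, 470 kept their direction and call, 6 kept the direction only (Psmc5 once and Psmd10 in 5), and 0 reversed. Deviations of same-numbered PBS and TNF libraries had correlations of -0.24 to -0.03, and those of differently numbered libraries -0.16 to 0.29. These few values gave no sign that the replicate numbers pair the libraries, but they cannot exclude it. With the replicate block, in which TNF replicate 4 has no partner, 32 proteasome genes were higher and 1 lower, and 7131 genes were called in all (of the other lists, 27 higher and 5 lower, with calls lost for Ecpas, Ubb, Sem1, Psmf1, Psmg4, Cct5, Cct7 and Cops7a among them, and Psmd10 lost its call, 0.53, edgeR adjusted p = 0.0684). The canonical transcript length, chosen after seeing the data, gave shares after PBS and TNF of 13.3% and 11.9% for Psmb9, 37.3% and 50.2% for Psmb10, and 42.3% and 66.4% for Psmb8. The merged exons exceed the canonical transcript by unlike factors within a pair. For Psmb7 the lengths were 6025 and 1160 bases, and for Psmb10 they were 1732 and 1312 bases. Scaling by total counts also ended the calls for Psmf1, Psmg4, Zfand5 and Cct7. At this depth no change was testable for Psma8 and Psmb11.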
